A study of Rattus norvegicus and Mus musculus with 9 samples.

Results

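Laminins, nidogens and perlecan are core proteins of basement membranes, and their genes were followed in embryonic stem (ES) cells of rat and mouse and in rat embryonic fibroblasts. The set was a list of 10 genes, Lama1, Lama2, Lama4, Lama5, Lamb1, Lamb2, Lamc1, Nid1, Nid2 and Hspg2, matched by symbol to the annotation of each array platform, with the probe set of highest mean signal kept for a symbol. All 10 were found among the 19938 named genes of the mouse table. In the rat table of 14506 named genes, 5 were found (Lama1, Lama5, Lamb2, Lamc1 and Nid2), each with 1 probe set. The other 5 (Lama2, Lama4, Lamb1, Nid1 and Hspg2) had no probe set listed under their symbol alone and were not analysed here in rat. Of 29215 rat probe sets, 13582 had no symbol listed, so this gap says nothing of their expression in rat.

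A basement membrane is a thin sheet of matrix on which epithelial and other cells rest. Its laminin network is built from trimers of 1 alpha, 1 beta and 1 gamma chain, which are joined in the endoplasmic reticulum before secretion and then polymerize at the cell surface on integrin and dystroglycan receptors. Nidogens bind the laminin gamma1 chain and type IV collagen, and perlecan carries heparan sulfate chains into the sheet. In the mouse blastocyst the first basement membrane forms between the epiblast, from which ES cells derive, and the primitive endoderm, and mouse embryos without Lamc1 fail to assemble it.

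Gene expression was measured with 3 microarrays per group, 1 sample per array. The rat ES cells, of strain DA, were in culture medium named 3I in the labels. The rat embryonic fibroblasts, also of strain DA, were kept in GMEM containing 10% fetal bovine serum. The mouse ES cells (strain C57/BL6) had GMEM with 10% serum plus leukaemia inhibitory factor, and were freed of feeder cells before RNA extraction. No such removal is stated for the rat ES cells, and the labels give neither line names nor separate cultures for the replicates, so p-values cover the spread between arrays, which may be technical. Rat cell type and medium differ together and cannot be told apart. The labelled cell types were checked by markers: in rat ES cells, limma called 9 of 9 measured pluripotency markers higher and 12 of 13 fibroblast markers lower. Over all rat genes, the shares were 10.6% called higher and 10.1% called lower. On the mouse ES arrays, the 11 measured pluripotency markers had a median percentile of 96.0 among named mouse genes and the 13 fibroblast markers one of 44.9, with 6 of these 13 above the median of all genes. The rat arrays had median signals from 5.71 to 5.74 (log2 over probe sets), and 3 arrays per group limit the precision throughout.

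The first comparison asked how these genes differ between rat ES cells and rat fibroblasts. In rat ES cells the laminin alpha1 chain gene Lama1 was 23.0-fold higher, while Lamb2, Lamc1 and Nid2 were 3.42-fold to 3.86-fold lower. Lama5 was 1.49-fold lower and did not reach the 2-fold threshold. Calls required a limma adjusted p under 0.05 (Benjamini-Hochberg over all 14506 rat genes) together with a change of at least 2-fold. Of the 5 measured genes, 1 was called higher, against 10.6% of all rat genes, and 3 were called lower, against 10.1%. All 5 had an adjusted p under 0.05 whatever the size, as did 56.3% of all genes. Either call applied to 20.7% of all genes, and the median log2 difference was -1.77 over the 5 genes and -0.0007 over all genes. The signals of both groups did not overlap in any of the 5, as in 61.5% of all genes. In RNA from whole cultures, fewer cells of a type and less RNA per cell cannot be told apart.

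Lama1 encodes the alpha chain typical of embryonic basement membranes. Its signals were 9.97, 10.08 and 9.98 on the rat ES arrays, against 5.47, 5.58 and 5.42 on the fibroblast arrays (log2). All 3 rat ES arrays thus stood far above all 3 fibroblast arrays. Lama1 averaged 10.01 ± 0.058 in rat ES cells and 5.49 ± 0.084 in fibroblasts (SD, n = 3 each), with a log2 difference of 4.52 with a 95% interval of 4.36 to 4.69 (limma adjusted p = 2.39e-09). This was the 32nd highest difference of the 14506 genes. The fibroblast signal lay below the lowest rat array median of 5.71, where signal was not separated from background, so the size of the fold is uncertain.

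Lama5 encodes the alpha chain that is widespread in adult and embryonic epithelia and whose trimers are used as a culture substrate for pluripotent cells. Signals were 7.75, 7.86 and 7.95 in rat ES cells, against 8.41, 8.41 and 8.48 in fibroblasts. The groups were separate, and the gap between the nearest arrays of both groups was wider than the spread within either. The log2 difference was -0.58 (95% interval -0.75 to -0.41, limma adjusted p = 1.69e-04), under the 2-fold threshold. Lama1 and Lama5 therefore had differences of opposite sign, with intervals that did not overlap.

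Lamb2 encodes the beta2 chain, known from the glomerular and neuromuscular basement membranes. It gave 7.38, 7.68 and 7.71 in rat ES cells, against 9.40, 9.48 and 9.45 in fibroblasts. Rat ES array 1 was the lowest of all, and the rat ES SD of 0.184 was the largest among the 5 genes. Lamb2 fell by 1.85 on the log2 scale in rat ES cells (SE 0.097, limma adjusted p = 6.22e-07), a 3.62-fold change.

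Lamc1 encodes the gamma1 chain, the partner shared by most laminin trimers. Its signals were 8.61, 8.71 and 8.71 in rat ES cells, against 10.41, 10.51 and 10.44 in fibroblasts. No array of one group came near the other. Lamc1 fell by 1.77 (log2, SE 0.068, limma adjusted p = 1.03e-07). Its signal in rat ES cells, 8.68 ± 0.058 (SD, n = 3), stayed above the array medians.

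Nid2 encodes nidogen-2, which like nidogen-1 links laminin to collagen IV. The 3 rat ES arrays gave 9.31, 9.36 and 9.32, against 11.21, 11.33 and 11.31 on the fibroblast arrays. This was the tightest of the 5 genes within rat ES cells, with a range of 0.053. Nid2 fell by 1.95 (log2, SE 0.066, limma adjusted p = 5.3e-08). The decreases of Lamb2, Lamc1 and Nid2 had overlapping 95% intervals, of -2.08 to -1.63, -1.93 to -1.62 and -2.10 to -1.80, so their order was not resolved.

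**Figure D1:**
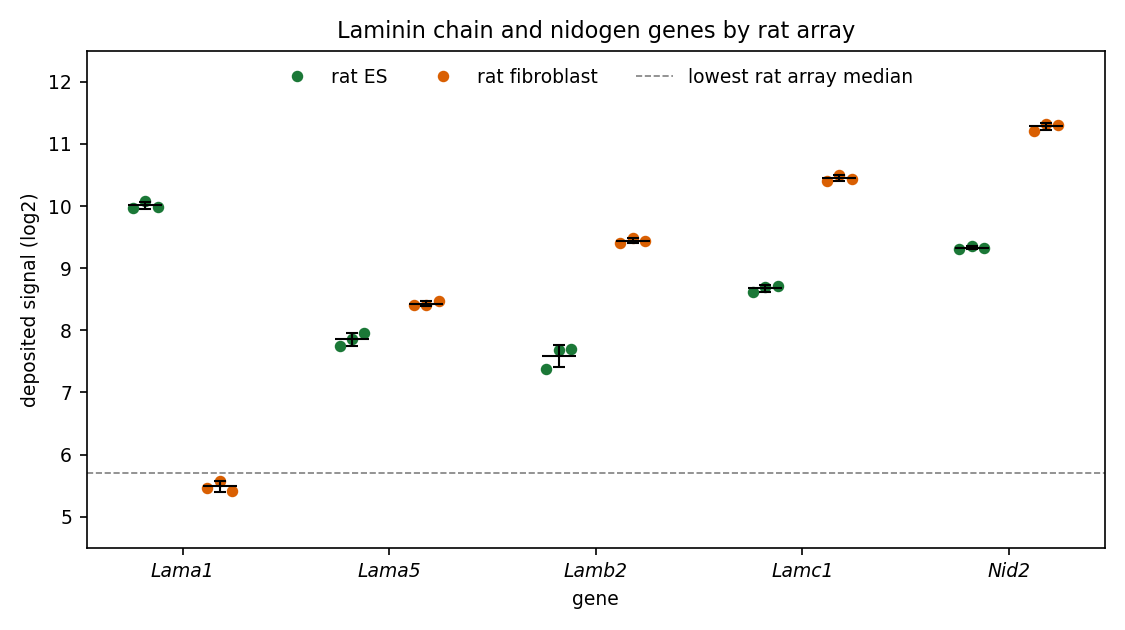
Deposited log2 signal (vertical axis) of the 5 laminin and nidogen genes measured in rat, with rat ES arrays left of rat fibroblast arrays for each gene. Points are arrays, black marks the mean and SD of 3 arrays, and the dashed line is the lowest rat array median (5.71). Lama1 stands near 10.01 in rat ES cells and below the dashed line in fibroblasts, and the other 4 genes are lower in rat ES cells. Levels are compared within a gene, since probe sets of different genes respond differently.

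Promoters are shown for the genes with both a rat value and a promoter window. These are Lama1, Lamc1, which was called lower in rat ES cells, and Lama5, which was not called. Lamb2 and Nid2, also called lower, had no promoter window here. RefSeq promoter windows on build GRCr8, from 250 bases before to 50 bases after the annotated start, were matched by symbol for 8 of the 10 genes, of which 3 have a rat value. Capitals mark the GC box GGGCGG and the GATA motif GATAA on either strand, and each sequence is written 5′ to 3′ on the strand of its gene. Lama1 lies at chr9:115139298-115139597 (plus strand), Lama5 at chr3:187695925-187696224 (minus strand) and Lamc1 at chr13:68051937-68052236 (minus strand).
Lama1: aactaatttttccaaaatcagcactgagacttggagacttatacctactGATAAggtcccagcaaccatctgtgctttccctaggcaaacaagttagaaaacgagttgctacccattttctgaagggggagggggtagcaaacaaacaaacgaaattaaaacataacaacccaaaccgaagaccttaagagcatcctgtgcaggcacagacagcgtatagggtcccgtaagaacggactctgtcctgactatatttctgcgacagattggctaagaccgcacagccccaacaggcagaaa
Lama5: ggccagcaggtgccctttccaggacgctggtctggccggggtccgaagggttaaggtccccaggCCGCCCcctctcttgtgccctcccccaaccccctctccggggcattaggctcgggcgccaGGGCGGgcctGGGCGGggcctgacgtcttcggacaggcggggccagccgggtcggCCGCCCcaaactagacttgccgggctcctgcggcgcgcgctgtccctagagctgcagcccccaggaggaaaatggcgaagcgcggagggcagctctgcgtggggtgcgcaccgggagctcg
Lamc1: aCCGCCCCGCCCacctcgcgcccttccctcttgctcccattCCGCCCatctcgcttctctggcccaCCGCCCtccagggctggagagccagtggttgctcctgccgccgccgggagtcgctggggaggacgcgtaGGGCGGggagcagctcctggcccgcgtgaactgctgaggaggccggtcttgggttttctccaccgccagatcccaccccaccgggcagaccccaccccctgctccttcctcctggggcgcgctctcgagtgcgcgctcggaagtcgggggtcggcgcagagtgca

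The Lama1 window held 45.7% G and C and 8 CpG dinucleotides, near the median of 7 over 27457 rat promoter windows of the same length. The Lama5 window held 73.0% G and C and 27 CpG, and the Lamc1 window 71.7% and 28 CpG, at the 85.7th and 87.0th percentile of CpG count. GC boxes numbered 4 in Lama5 and 5 in Lamc1, 2 of which overlap by 1 base at the start of the Lamc1 window, and none was found in Lama1. Of all windows, 34.9% held a GC box. Lama1 had 1 GATA motif, 201 bases before the start, which Lama5 and Lamc1 lacked, and 26.1% of all windows held one. The other 4 motifs searched on both strands, TATAAA (14.3% of windows), CTTTG for TCF/LEF factors (53.5%), TGANTCA for AP-1 (7.33%) and ACAAT for SOX factors (33.1%), were absent from all 3. A match is only a run of letters in this window, and a missing match says nothing of the factor. Among the 5 genes with a promoter but no rat value, CpG counts were 4 in Lama2, 12 in Lama4, 18 in Lamb1, 21 in Nid1 and 28 in Hspg2.

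**Figure D2:**
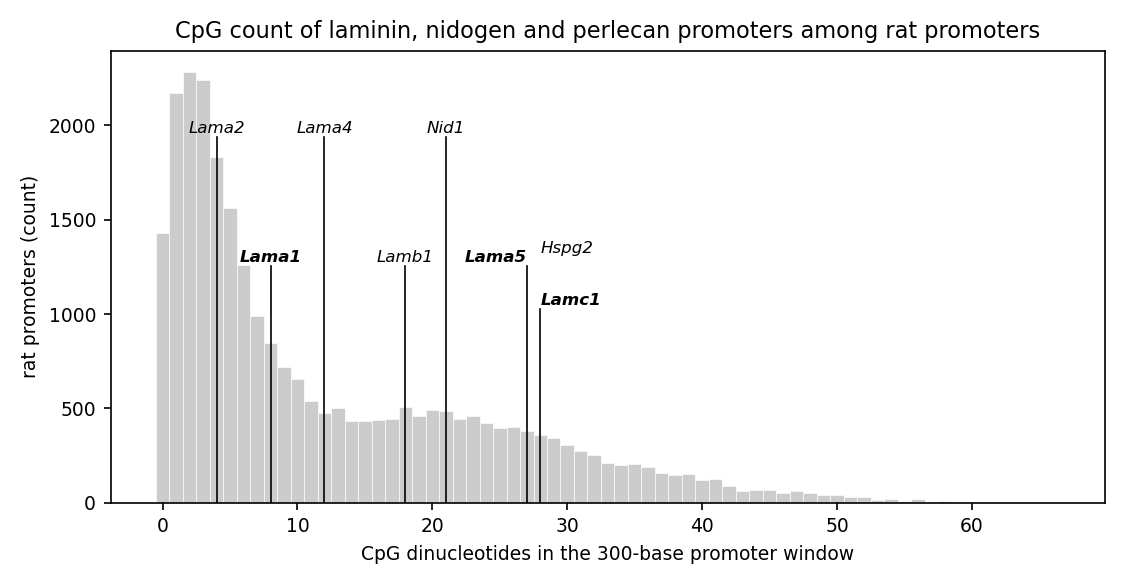
Number of rat promoter windows (vertical axis, grey bars, 27457 in all) by the CpG dinucleotides they hold (horizontal axis). Lines mark the 8 laminin, nidogen and perlecan promoters, with genes that have a rat array value in bold. Lama1 (8 CpG) lies near the median of 7, and Lama5 (27) and Lamc1 (28) lie in its upper tail.

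Cell type markers were set beside these differences. Lama1 is also made by primitive and parietal endoderm, where GATA and SOX factors are among its regulators in mouse. Which factors act on Lama1 in these cells was not tested, and the promoter window above does not cover more distant sequence. Of 16 measured endoderm markers, 1 was called higher in rat ES cells (Hnf4a, log2 difference 1.14) and 4 lower (Dab2, Plat, Pdgfra and Gata6), of which Pdgfra is also a fibroblast gene. Another 9 of the 16 had means under the array medians in rat ES cells and fibroblasts alike, among them, named after their values were seen, Gata4 (4.67 in rat ES cells and 4.75 in fibroblasts) and Sox17 (5.45 in rat ES cells and 5.64 in fibroblasts). The summed linear signal of the endoderm list was 763 to 836 on the rat ES arrays and 2395 to 2466 on the fibroblast arrays. Genes with high fibroblast signals, such as Dab2 (9.68) and Plat (9.17), enter that sum, so it does not measure endoderm cells among the rat ES cells, and their part in the Lama1 signal was not tested.

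Among 13 fibroblast markers, all 13 had more signal on the third than on the first rat ES array, with a median excess of 0.25 (log2), where the median over all genes was 0.022. Their summed linear signal was 2229 to 3592 on the rat ES arrays and 56957 to 59924 on the fibroblast arrays. More signal on the third than on the first rat ES array was also counted in the other lists. It was seen for 14 of 16 other basement membrane component genes and 9 of 11 laminin receptor genes, both described below. Both lists hold genes with high fibroblast signals, such as Sparc (13.29) and Sdc2 (10.98). These 2 counts are therefore not independent of fibroblast-type signal. Among smooth muscle and pericyte markers the third array was higher for 4 of 8, and among pluripotency markers for 4 of 9. It was higher for 10 of 16 endoderm markers, 10 of 16 heparan sulfate genes, 4 of 7 dystroglycan glycosylation genes and 3 of 3 other laminin chains. Further counts were 5 of 6 skeletal muscle, 3 of 3 keratinocyte, 3 of 6 trophoblast, 2 of 8 endothelial and 1 of 5 Schwann cell and neuron markers. The share over all genes was not counted, so these counts have no background beside them. Lamb2 differed between the same 2 rat ES arrays by 0.33, Lama5 by 0.20, Lamc1 by 0.10, Lama1 by 0.011 and Nid2 by 0.0097. The part of fibroblast-type RNA in the rat ES signals was not tested. Without rat ES array 3, and without each other rat array in turn, the same 4 genes were called.

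The remaining laminin chain genes were measured for 3 of 4 listed. Lama3, Lamb3 and Lamc3 encode chains of epithelial and other more restricted laminins. Lama3 averaged 4.54 in rat ES cells and 4.78 in fibroblasts, Lamb3 4.58 in rat ES cells and 5.34 in fibroblasts, and Lamc3 5.53 in rat ES cells and 5.49 in fibroblasts (log2, n = 3 each). All 6 means lay below the array medians and none of the 3 genes was called. Lamb3 differed by -0.76 at a limma adjusted p of 1.43e-04, under the 2-fold threshold, and low expression cannot be told apart here from a probe set that does not respond.

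Partners of laminin in the sheet moved in both directions. Of 16 measured other basement membrane components (28 listed), 6 were called lower in rat ES cells and 3 higher, with a median log2 difference of -0.29. For this list and the receptor and enzyme lists that follow, the shares over all rat genes were 10.1% called lower and 10.6% called higher. The collagen IV chain gene Col4a1 was at 6.67 ± 0.158 in rat ES cells and 10.62 ± 0.044 in fibroblasts (log2, SD, n = 3 each), and differed by -3.96. Also lower were the collagen-binding glycoprotein gene Sparc (-3.64), Tinagl1 (-3.59) and the SPARC relative Smoc1 (-3.12). Higher in rat ES cells were Fbln1 (2.54), which encodes the matrix protein fibulin-1, and Ntn1 (2.29), which encodes the laminin-related netrin-1. The third gene called higher, named after its values were seen, was Agrn (1.35), whose product agrin bridges laminin and dystroglycan. Its signals were 9.68, 9.71 and 9.71 in rat ES cells, against 8.39, 8.42 and 8.25 in fibroblasts.

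The receptors were measured for 11 of 13 listed genes, of which 6 were called lower in rat ES cells and 1 higher, with a median of -1.03. Itgb1, the beta subunit shared by most laminin-binding integrins, averaged 9.99 ± 0.077 in rat ES cells and 12.52 ± 0.029 in fibroblasts, and differed by -2.52 (log2). Itga1, which pairs with it in a receptor for collagen and laminin, fell by 4.71, and the proteoglycan receptor gene Sdc2 by 4.47. Itga7, the alpha subunit of a laminin receptor known from muscle, was higher by 2.41. Itga6, the alpha subunit of the main epithelial laminin receptor, was named after its values were seen: it averaged 8.89 ± 0.086 in rat ES cells and 7.96 ± 0.044 in fibroblasts (SD, n = 3 each). That difference of 0.93 had a limma adjusted p of 6.31e-06 and lay just under the 2-fold threshold. Sdc4, a further receptor gene at -1.03 and also named after its values were seen, was at -0.96 after median centring, at -0.92 without rat ES array 1 and at -0.998 without fibroblast array 2, where its 2-fold call was lost.

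Enzymes that make or modify the sugar chains of dystroglycan and the heparan sulfate chains were also counted. Of 7 measured dystroglycan glycosylation genes (13 listed), 1 was called, Gmppb, which makes the mannose donor and fell by 1.43, and the list median was -0.48. Of 16 measured heparan sulfate genes (18 listed), 8 were called lower in rat ES cells and none higher, with a median of -0.89. The largest decreases were in Sulf1 (-2.69), Ndst1 (-2.51), Extl2 (-2.42) and Hs2st1 (-2.22). Ndst1 and Hs2st1 encode sulfotransferases, Extl2 a glycosyltransferase of the linkage region, and Sulf1 an extracellular enzyme that removes sulfate and so does not build the chain.

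**Figure D3:**
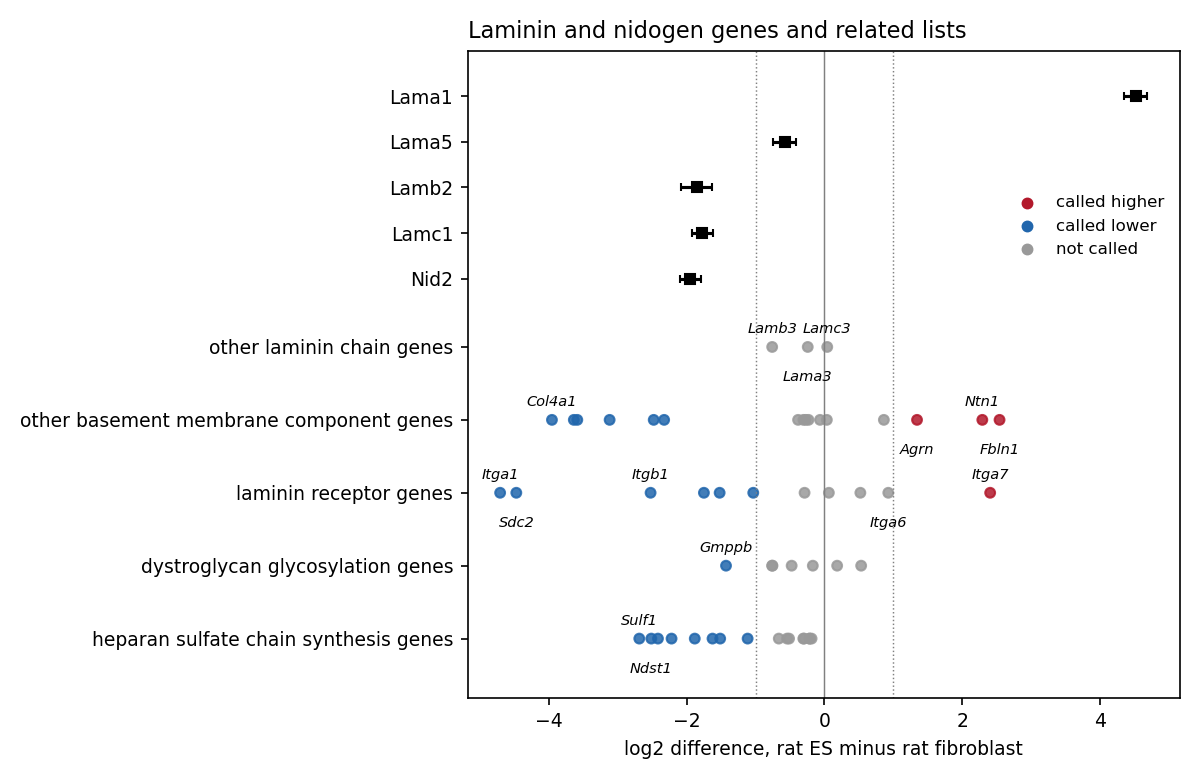
Log2 difference, rat ES minus rat fibroblast (horizontal axis), for the 5 laminin and nidogen genes (black squares, bars are 95% intervals from limma) and for each gene of 5 related lists (dots, coloured by call). Dotted lines mark 2-fold. Lama1 (4.52) is far to the right, Lamb2, Lamc1 and Nid2 lie between -1.95 and -1.77, and Fbln1, Ntn1, Agrn and Itga7 are the list genes called higher.

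The rat genes with the array profile most like that of Lama1 were Nefl, Igfbpl1 and Zscan10, by Euclidean distance between gene-centred log2 profiles over the 6 rat arrays (0.18, 0.19 and 0.20). Their log2 differences were 4.48, 4.51 and 4.42. The profile of Nid2, the lowest difference among the 5, was nearest to Rap2c (0.080), Htr1b (0.11) and Arsi (0.11), with differences of -1.96, -2.00 and -2.00. With 2 groups on 6 arrays, such likeness mostly reflects a similar size of difference.

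The second comparison set mouse ES cells beside rat ES cells. The mouse arrays are another platform with its own normalization, so values were turned into percentiles within each array among the 12114 symbols present in both tables. The mouse arrays share many identical values: of the 10 genes, 4 were identical across the 3 mouse arrays and 6 across 2 of them, so no SD over mouse arrays is given and these arrays may not be independent. Exact two-sided permutation tests of 3 against 3 arrays cannot go below p = 0.1, and 87.4% of all shared symbols had mouse and rat ES arrays that do not overlap. Of the 5 genes 4 did not overlap, which is near that background. This comparison and the first one share the rat ES arrays. Between mouse and rat arrays the probe sets, species, medium and stated feeder removal differ together and cannot be told apart, so percentiles are set side by side as descriptions.

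Lama1 stood at the 79.8th, 81.2nd and 80.2nd percentile on the mouse ES arrays, against 94.9 to 95.4 on the rat ES arrays. The 3 rat fibroblast arrays placed it at 30.4, 32.7 and 29.1. The difference of mouse minus rat ES means was -14.7 points (exact permutation p = 0.1, the smallest possible, and 0.114 adjusted over all shared symbols).

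Lama5 and Lamc1 had higher percentiles on the mouse ES arrays. Lama5 was at 93.0, 93.8 and 92.9 on the mouse ES arrays and at 67.5, 68.9 and 70.5 on the rat ES arrays, a difference of 24.2 points, while the rat fibroblast arrays gave 79.7, 79.4 and 81.0. Lamc1 was at 96.5, 96.8 and 96.6 in mouse ES cells and at 81.6, 82.5 and 82.8 in rat ES cells, a difference of 14.4 points. In rat fibroblasts Lamc1 was at 96.6, 96.8 and 96.8, overlapping the mouse ES arrays. Each of these 2 differences also had an exact permutation p of 0.1 (0.114 adjusted over all shared symbols). Over all shared symbols, the median size of the difference between mouse and rat ES percentiles was 8.64 points.

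Nid2 and Lamb2 were close between both ES cell types. Nid2 was at 87.6, 88.6 and 87.4 in mouse ES cells and at 90.2, 90.4 and 90.2 in rat ES cells, a difference of -2.39 points (exact permutation p = 0.1) whose sign turned, to 0.093, when percentiles were taken among all named genes. Lamb2 was at 64.6, 66.9 and 64.6 in mouse ES cells and at 61.3, 65.6 and 65.9 in rat ES cells, which overlap (difference 1.07, exact permutation p = 0.8), and the sign turned without rat ES array 1 (-0.40). The rat fibroblast arrays gave 98.6 to 98.8 for Nid2 and 91.0 to 91.4 for Lamb2.

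The 5 genes measured only in mouse were ranked among all 19938 named mouse genes. Lamb1, the beta1 chain that joins alpha1 and gamma1 in the early embryonic laminin, was at percentiles 95.5 to 96.0 on the 3 mouse ES arrays. Hspg2, which encodes perlecan, was at 93.5 to 94.3, and Nid1, which encodes nidogen-1, at 79.3 to 81.7. The alpha2 chain gene Lama2, known from muscle and peripheral nerve, was at 21.3 to 21.9. Lama4, the alpha4 chain gene of vessels and mesenchyme, was at 28.4 to 29.0. Both lay below the median of the mouse arrays with log2 signals of 3.58 for Lama2 and 4.03 for Lama4 on every mouse array, a range where expression was not separated from background. On the same scale Lama1 was at 84.9 to 85.9, Lama5 at 94.8 to 95.5, Lamb2 at 72.7 to 74.5, Lamc1 at 97.5 to 97.8 and Nid2 at 90.8 to 91.7.

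**Figure D4:**
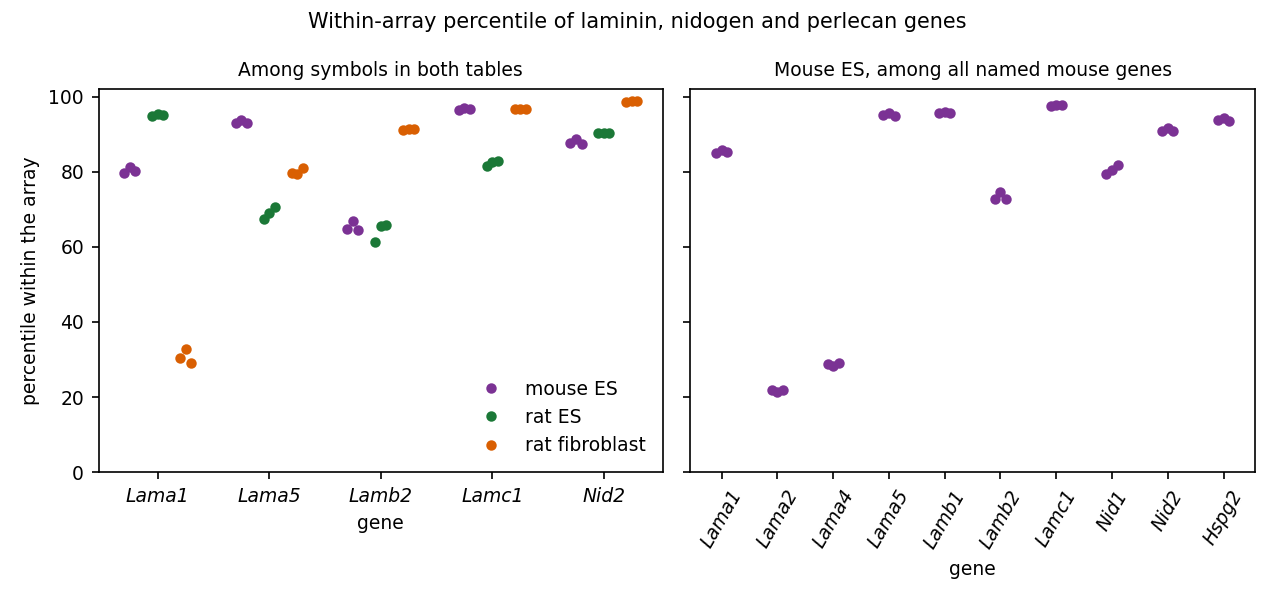
Percentile of each gene within its array (vertical axis), 1 point per array. On the left, the 5 genes present in both tables are ranked among 12114 shared symbols in mouse ES, rat ES and rat fibroblast arrays. On the right, all 10 genes are ranked among 19938 named genes on the 3 mouse ES arrays. Lama1 averages 80.4 in mouse ES, 95.1 in rat ES and 30.7 in fibroblast arrays, and Lama2 and Lama4 lie between 21.3 and 29.0 in mouse ES cells.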

How the data were processed

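Total RNA was converted to biotin-labelled single-stranded DNA and hybridized to 1 array per sample, according to the labels' protocols. One table of 6 rat arrays and another of 3 mouse arrays hold probe set signals that the authors deposited as log2 values. The log2 scale was read from the range of the values. Background correction, normalization and genome build: not given in the sources used here. Levels were tested only within the rat table, without further normalization. Symbols came from the platform annotation, and only probe sets with 1 symbol were used, which leaves aside a second Lamc3 probe set shared with a neighbouring gene.

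Rat ES cells were compared with rat fibroblasts in limma 3.58.1 (R 4.3.3; lmFit and eBayes, group only, no filter on level), checked on simulated data. Mouse values were used as within-array percentiles, with exact two-sided permutation tests. The members and gene lists were chosen with earlier results of these data known. Named are all members, every other laminin chain, and in each other pathway list up to 4 called genes with the largest differences and up to 2 called genes against the majority. Single cell type markers were named after their values were seen. The nearest profiles are given for the members with the highest and lowest difference. Lists of endothelial, smooth muscle, neural, muscle, trophoblast and keratinocyte markers were also counted. Alternatives were quantile normalization, median centring, a level filter at the 25th percentile, averaging of probe sets, other variance and call settings, a block on the replicate number, and fits without each array in turn.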

Additional observations from a re-analysis of the deposited data

How the results depend on the processing

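Under every alternative for the rat comparison, the count of laminin and nidogen genes called stayed at 1 higher and 3 lower, except that Lama5 also counts as lower when no fold threshold is set. The log2 difference ranged from 4.49 to 4.59 for Lama1, -0.67 to -0.51 for Lama5, -1.91 to -1.75 for Lamb2, -1.80 to -1.71 for Lamc1 and -1.98 to -1.88 for Nid2 over normalization, filter, variance and left-out arrays. With no fold threshold, 4478 rat genes were higher and 3694 lower, in place of 1538 and 1458. In the fit with a replicate block, again 1 member was called higher and 3 lower. The labels do not say that the numbers pair the samples, and same-numbered arrays deviated together at correlations of -0.00044, 0.031 and -0.0003, so they were not treated as pairs.

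Of 50 alternative percentile differences between mouse and rat ES cells, 2 changed sign: Nid2 was at 0.093 among all named genes, and Lamb2 at -0.395 without rat ES array 1. The cause was not tested. Differences ranged from -21.6 to -9.93 for Lama1, 23.0 to 35.2 for Lama5, 13.7 to 21.0 for Lamc1, -0.395 to 5.37 for Lamb2 and -3.54 to 0.093 for Nid2. Over fits without 1 array, Lamb2 ranged from -0.395 to 1.89. Signals below the array medians, as for Lama1 in fibroblasts, limit what fold sizes show.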

Other observations

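Among marker lists of further cell types in the rat comparison, limma called 2 of 8 endothelial markers higher in rat ES cells and 2 lower, 4 of 8 smooth muscle and pericyte markers lower, 1 of 5 Schwann cell and neuron markers higher and 1 lower, 1 of 6 skeletal muscle markers lower, and 2 of 6 trophoblast markers higher and 1 lower. Of 3 keratinocyte markers none was called by limma, and none had an adjusted p under 0.05. The shares over all rat genes were 10.6% called higher and 10.1% called lower. The endothelial increases were in Pecam1 (4.58), which ES cells also express, and Tie1 (3.00), and the trophoblast increases were in Cdx2 (3.80) and Tfap2c (3.34). The endothelial decreases were in Tek (-1.31) and Erg (-1.575), and the trophoblast decrease was in Gata3 (-1.71).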
